A study of Mesocricetus auratus with 14 samples.

Results

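The genes described here are 10 genes of gluconeogenesis in the liver, arranged around Pck1. They are Pck1, Pck2, Fbp1, G6pc, Slc37a4, Ppargc1a, Tat, Sds, Got1 and Gpt. They were chosen by name for their role, with earlier results of these data known. They were taken as the rows of the authors' expression table that carry these symbols. All 10 were found, among 10023 genes with a symbol in that table and 22283 genes in the count table. The study sequenced liver RNA of Syrian golden hamsters (Mesocricetus auratus), a rodent used as a model of human-like lipoprotein metabolism. Both groups were fed a high-fat diet. They were a control group and a group that received DC371739, a small molecule named only by this code, with 7 samples in each. The labels state no strain, sex, age, dose, route, length of treatment or feeding state. Nor do they tie each sample to an animal of its own, so the p-values describe the scatter among these samples, which may be technical.

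Gluconeogenesis makes glucose from lactate, glycerol and amino acids, and the liver is its main site during fasting. Most of its steps are glycolytic reactions run backwards, and the irreversible glycolytic steps are bypassed by enzymes of its own. Phosphoenolpyruvate carboxykinase makes phosphoenolpyruvate from oxaloacetate, fructose-1,6-bisphosphatase removes a phosphate from fructose 1,6-bisphosphate, and glucose 6-phosphatase releases free glucose inside the endoplasmic reticulum. Glucagon and glucocorticoids raise the transcription of Pck1, G6pc and Tat, and insulin lowers that of Pck1 and G6pc.

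Libraries held 13672589 to 23948628 counts. The 3 libraries of highest total count, control replicates 6 and 7 and DC371739 replicate 7, held 22152239 counts or more, against at most 16710097 in the other 11, and are called deep below. The labels give no batch for them. Of 10 hepatocyte markers 9 had a symbol, and their summed level was 119100 to 156200 CPM (counts scaled to one common library total) in control and 121200 to 141400 CPM in DC371739 libraries. Genes were tested in a fit to all 14 libraries, in one that adds a class term (deep or shallower), and in one to the 11 shallower libraries alone, of which 5 are control and 6 DC371739. Where a fit is not named, a value is from all 14 libraries.

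Pck1, G6pc, Slc37a4, Tat, Ppargc1a and Pck2 had higher mean levels in the DC371739 samples, by 1.24-fold (Pck2) to 2.34-fold (Pck1) on the CPM scale, while Fbp1, Sds, Got1 and Gpt differed by less than 5% of the control mean. None of the 10 passed an adjusted p of 0.05 over all 14 libraries in edgeR's quasi-likelihood test, in which 1.85% of all 12166 tested genes passed. At an unadjusted p under 0.05 the number was 5 of 10, against 20.4% of all genes. Adding the class term, 1 member rose, Slc37a4, against 12.3% of all genes called in either direction and 5.62% called higher. Over the 11 shallower libraries 4 members rose, Pck1, G6pc, Slc37a4 and Ppargc1a, and none fell, against 21.5% of all genes called in either direction and 11% called higher. Other tools applied to all 14 libraries gave 2 members with DESeq2 (G6pc and Slc37a4, against 6.92% of all genes) and 5 with limma-voom and sample quality weights (Pck1, G6pc, Slc37a4, Ppargc1a and Tat, against 23.7%). The median log2 fold change of the 10 was 0.38 over all 14 libraries, and that of all tested genes was -0.02. In the fit with the class term these medians were 0.39 and 0.00, and over the shallower libraries 0.40 and 0.01.

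**Figure D1:**
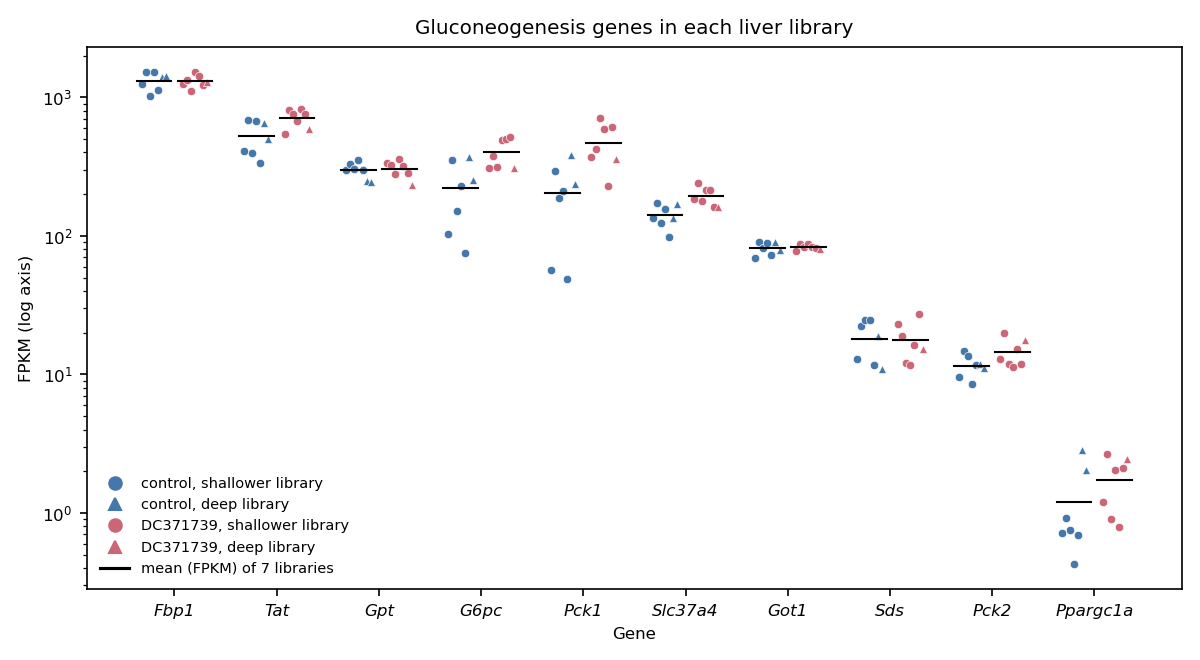
FPKM of the 10 genes in each library on a log axis, control in blue and DC371739 in red, circles for the shallower and triangles for the deep libraries, with a bar at the mean of 7. Fbp1 lies near 1300 in both groups, and the Pck1 and G6pc values of controls 1 and 5 lie below all others.

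Levels per length of transcript, as the authors' FPKM (fragments per kilobase of transcript, scaled by a factor for each library), spanned 3 orders of magnitude. That factor did not follow the total count. Counts per base per FPKM were 0.0133 in control 1 and 0.0153 in control 6, which held 16441903 and 22152239 counts. In controls the order was Fbp1 (1320 ± 195, SD, n = 7), Tat (522 ± 147), Gpt (296 ± 38.7), G6pc (220 ± 116), Pck1 (202 ± 120), Slc37a4 (141 ± 26.1), Got1 (81.6 ± 8.59), Sds (18.1 ± 6.10), Pck2 (11.6 ± 2.13) and Ppargc1a (1.20 ± 0.90). The ranges of neighbours overlapped for Tat and Gpt, Gpt and G6pc, G6pc and Pck1, Pck1 and Slc37a4, and Sds and Pck2. In DC371739 samples Pck1 and G6pc followed Fbp1 and Tat, ahead of Gpt, with ranges that again overlapped those of their neighbours. Counts behind these levels ran from 34 to 277 per library for Ppargc1a and from 19135 to 33333 for Fbp1.

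The phosphoenolpyruvate step has a cytosolic enzyme, Pck1, whose activity is controlled mainly through its transcription, and a mitochondrial one, Pck2. In the coordinates of the count table, for which the labels state no genome build, Pck1 (ENSMAUG00000020497) spans 7050888 to 7057071 of scaffold KB708174.1 on the plus strand, with 2685 bases of summed exons. Pck2 (ENSMAUG00000013705) spans 2216637 to 2221505 of KB708321.1, with 1425 bases. None of the 10 genes overlaps another gene of the count table.

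Pck1 was at 56.8, 293, 188, 210, 48.9, 384 and 235 FPKM in control replicates 1 to 7, and at 373, 426, 704, 585, 230, 615 and 361 FPKM in DC371739 replicates 1 to 7. Controls 1 and 5 were the lowest of all 14, and 4 of 7 DC371739 samples lay above the highest control, while replicates 1, 5 and 7 lay within the control range. The mean went from 202 ± 120 to 470 ± 168 FPKM (SD, n = 7), and all 7 DC371739 samples lay above the control median. The log2 fold change was 1.22 (SE 0.39, 95% interval 0.40 to 2.05, adjusted p = 0.0963). It was 1.37 (adjusted p = 0.0715) with the class term and 1.63 (SE 0.52, adjusted p = 0.0499) over the shallower libraries. The last value lies at the threshold: the call was lost without any one of control replicates 1, 3, 4 and 5 and DC371739 replicates 1, 2, 3, 4 and 6, with an adjusted p of up to 0.0955. In the authors' deposited table the log2 fold change of Pck1 was 1.22 with an adjusted p of 0.09996.

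Pck2 was at 8.57 to 14.6 FPKM in control and 11.3 to 19.9 FPKM in DC371739 samples, with 3 of 7 DC371739 samples above the highest control. Its log2 fold change was 0.32 (SE 0.15, 95% interval 0.00 to 0.63, adjusted p = 0.240), and it passed in none of the 3 fits. In the shallower libraries it was 0.27 (adjusted p = 0.271).

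Fbp1 encodes the fructose-1,6-bisphosphatase of liver and was the most abundant member. Its values were 1018 to 1515 FPKM in control and 1118 to 1530 FPKM in DC371739 samples, and the groups overlapped almost entirely. The means were 1320 ± 195 and 1306 ± 136 FPKM, and the log2 fold change was -0.02 (SE 0.10, adjusted p = 0.950). The 95% interval was -0.23 to 0.20. The sign turned positive over the shallower libraries (0.03) and with upper-quartile or library-size scaling.

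The last step needs the catalytic subunit of glucose 6-phosphatase, G6pc (ENSMAUG00000002100, 20163642 to 20172702 of KB708147.1), and the transporter Slc37a4 (ENSMAUG00000014974, 6906274 to 6912212 of KB708145.1), which brings glucose 6-phosphate into the endoplasmic reticulum. G6pc was at 104, 353, 151, 228, 75.7, 371 and 254 FPKM in control replicates 1 to 7, and at 308, 375, 316, 492, 496, 513 and 310 FPKM in DC371739 replicates 1 to 7. As for Pck1, controls 5 and 1 were the lowest, and 5 of 7 controls lay below every DC371739 sample, with controls 2 and 6 overlapping them. The spread was wider in control (coefficient of variation 52.8%) than in DC371739 samples (23.8%). This difference in spread was not tested. The log2 fold change of G6pc was 0.87 (SE 0.30, 95% interval 0.24 to 1.5, adjusted p = 0.115), 0.97 (adjusted p = 0.0813) with the class term and 1.20 (SE 0.38, adjusted p = 0.0471) over the shallower libraries. The last call was lost when any one of controls 1, 3, 4 and 5 and DC371739 samples 2 to 6 was left out, with an adjusted p of up to 0.103.

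Slc37a4 was at 135, 172, 124, 156, 98.9, 133 and 168 FPKM in control replicates 1 to 7, and at 185, 241, 177, 213, 215, 161 and 160 FPKM in DC371739 replicates 1 to 7. The groups overlapped only through DC371739 replicates 6 and 7 and controls 2 and 7. Its log2 fold change was 0.45 (SE 0.13, 95% interval 0.18 to 0.73, adjusted p = 0.0696) over all 14 libraries. It passed without control replicate 7 (adjusted p = 0.0412) or DC371739 replicate 7 (0.0271), and not without any other single library. Slc37a4, with the class term, rose by 0.45 (adjusted p = 0.0357), a call that failed, with an adjusted p of up to 0.0829, when control 1, 3 or 5 or DC371739 sample 2, 3, 4 or 5 was left out. Over the shallower libraries it rose by 0.54 (SE 0.13, adjusted p = 0.0129) and passed whichever of the 11 was left out (adjusted p up to 0.0381).

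Ppargc1a (PGC-1 alpha), a coactivator that cooperates with HNF4A and FOXO1 at the promoters of Pck1 and G6pc, was the least abundant member, and its level differed between library classes. The 5 shallower controls stood at 0.714, 0.926, 0.749, 0.426 and 0.691 FPKM, and the deep controls 6 and 7 at 2.87 and 2.04 FPKM. DC371739 replicates 1 to 7 stood at 1.21, 2.66, 0.900, 2.04, 0.793, 2.10 and 2.44 FPKM. No DC371739 sample lay above the highest control, which was a deep one, whereas 4 of the 6 shallower DC371739 samples lay above all 5 shallower controls. Its log2 fold change was 0.52 (SE 0.39, adjusted p = 0.475) over all 14 libraries, 0.94 (SE 0.31, adjusted p = 0.0569) with the class term and 1.21 (SE 0.33, adjusted p = 0.0206) over the shallower libraries, the last call being lost without control replicate 5 (adjusted p = 0.0508). Between the deep and the shallower libraries, with treatment as a term, Ppargc1a was higher in the deep ones by 1.35 (SE 0.34, adjusted p = 0.00475). In that comparison 46.4% of all genes passed, and of the members Ppargc1a and Gpt did.

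Tat, tyrosine aminotransferase, starts the breakdown of tyrosine and is a classical glucocorticoid-induced gene of liver. It was at 412, 690, 395, 669, 338, 650 and 498 FPKM in control replicates 1 to 7, and at 544, 813, 753, 679, 826, 756 and 593 FPKM in DC371739 replicates 1 to 7. Controls 1, 3, 5 and 7 lay below every DC371739 sample, and controls 2, 4 and 6 lay among them. The log2 fold change was 0.44 (SE 0.16, 95% interval 0.10 to 0.79, adjusted p = 0.140). It was 0.44 (adjusted p = 0.0917) with the class term and 0.55 (adjusted p = 0.0526) over the shallower libraries, and passed in none of the 3 fits.

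The other genes of amino acid entry did not separate the groups. Sds, serine dehydratase, which turns serine into pyruvate, was at 11.03 to 24.8 FPKM in control and 11.7 to 27.4 FPKM in DC371739 samples (log2 fold change -0.02, SE 0.23, 95% interval -0.51 to 0.47, adjusted p = 0.977). Its sign turned with upper-quartile or library-size scaling. Got1, the cytosolic aspartate aminotransferase, was the steadiest member, at 81.6 ± 8.59 and 82.6 ± 3.47 FPKM (log2 fold change 0.02, SE 0.08, 95% interval -0.15 to 0.18, adjusted p = 0.930). Gpt, alanine aminotransferase, was at 296 ± 38.7 and 305 ± 42.2 FPKM (0.04, SE 0.11, 95% interval -0.19 to 0.28, adjusted p = 0.868). The lowest Gpt values were those of the deep libraries, at 251 and 244 FPKM in controls 6 and 7 and 234 FPKM in DC371739 replicate 7. In the class term fit Sds was at -0.06, Got1 at 0.02 and Gpt at -0.02, and over the shallower libraries they were at -0.07, 0.05 and 0.01, with an adjusted p of 0.680 or more in each case. Between library classes Gpt was lower in the deep ones by a log2 difference of -0.42 (SE 0.09, adjusted p = 0.00120).

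**Figure D2:**
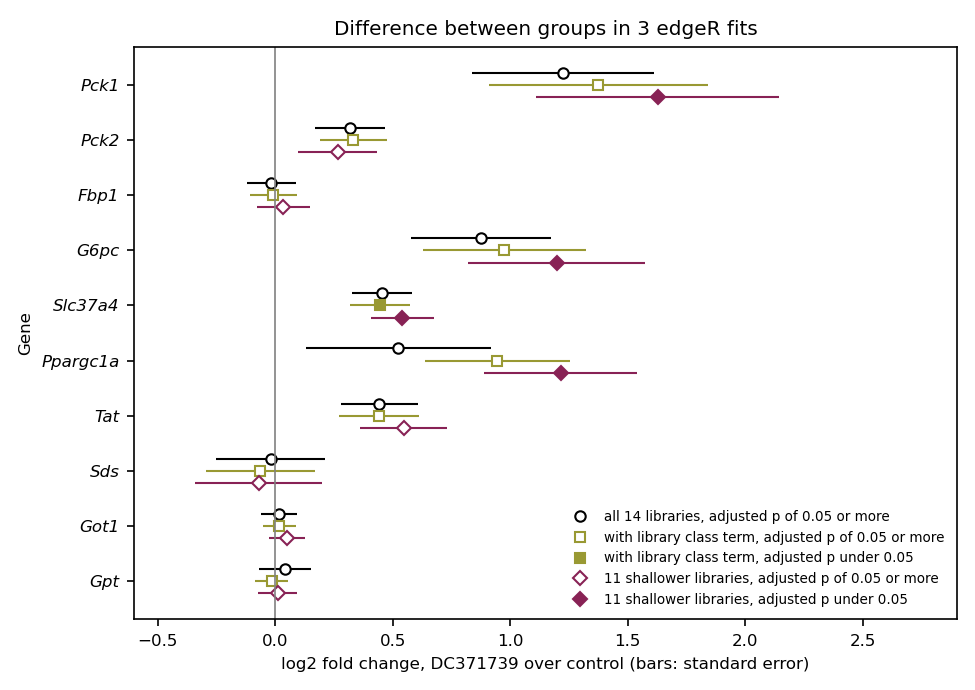
Log2 fold change of DC371739 over control for each gene with its standard error as a bar, in edgeR fits over all 14 libraries (black), with a library class term (olive) and over the 11 shallower libraries (purple); filled symbols have an adjusted p under 0.05. Pck1, G6pc, Slc37a4 and Ppargc1a are filled in purple, Slc37a4 also in olive, and Fbp1, Sds, Got1 and Gpt lie near 0 in all 3.

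Whether the treatment difference itself differed between library classes was tested with an interaction term, although the deep class held 2 control libraries and 1 DC371739 library. No member passed, and none had an unadjusted p under 0.05, Ppargc1a coming nearest (adjusted p = 0.467). Over all genes 2 of 12166 passed, or 0.0164%. The interaction estimates were large but poorly bounded, at -1.41 (SE 1.13) for Pck1 and -1.21 (SE 0.84) for G6pc, so this design could not tell a smaller difference in the deep libraries from an equal one.

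Across libraries, Pck1, G6pc and Tat were high or low together, and mostly among controls. The correlations that follow are of log2 CPM. The points share each library's depth and scaling, so they describe these libraries. Pearson's r of Pck1 with G6pc was 0.88 over the 14 libraries (Spearman's rho 0.78), the highest of 10010 genes with a symbol. Within groups of 7 it was 0.96 among controls and 0.01 among DC371739 samples. The difference between these was not tested. Without controls 1 and 5, the 2 libraries farthest from the Pck1 median, r was 0.61. For Pck1 with Tat, r was 0.78 over 14 libraries (rho 0.64), 0.80 among controls, 0.07 among DC371739 samples and 0.51 without controls 1 and 5. G6pc and Tat had an r of 0.90 over 14 libraries, 0.90 among controls and 0.59 among DC371739 samples. The r of Pck1 with Got1 was 0.66, and 0.02 without controls 1 and 5, so it rests on those libraries. Pck1 had an r of 0.31 with Pck2 and of -0.03 with Gpt.

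**Figure D3:**
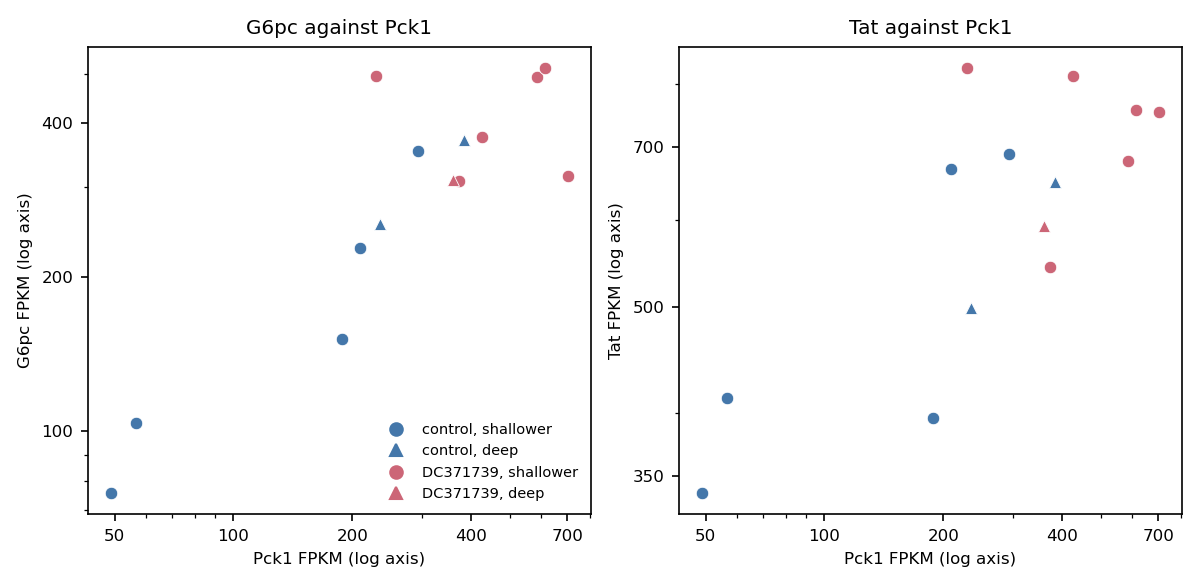
FPKM of G6pc (left) and Tat (right) against Pck1 in each of the 14 libraries on log axes, control in blue and DC371739 in red, triangles for the deep libraries. Controls 1 and 5 sit at the lower left at 56.8 and 48.9 FPKM of Pck1, and among DC371739 samples the r of G6pc with Pck1 is 0.01.

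By the same measure, the genes with the highest r to Pck1 over the 14 libraries after G6pc were Plpp3, a lipid phosphate phosphatase (0.87), Mfsd9 (0.86), Slc25a47, a mitochondrial carrier of liver (0.86), and Mast1 (0.85). Over the 11 shallower libraries G6pc (r = 0.8821) was no longer among the 5 highest, which were Shank2 (0.93), Mast1 (0.93), Slc25a47 (0.89), Ddah1 (0.89) and Kalrn (0.8828). Mast1 and Shank2 had low levels, with a mean log2 CPM of 0.55 and 1.16. Within groups, the r of Slc25a47 with Pck1 was 0.90 among controls and -0.23 among DC371739 samples. That of Plpp3 was 0.79 and 0.62. Slc25a47 had a log2 fold change of 1.20 (adjusted p = 0.0565) and Plpp3 of 0.46 (0.0512).

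Ratios of FPKM within a library do not depend on the scaling between libraries. They are given for 5 pairs: isozymes of a step, and a gluconeogenic enzyme with a glycolytic enzyme that opposes the pathway. Each was tested by an exact two-sided permutation test over samples, with p-values adjusted over the 6 ratios computed.

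The ratio of Pck1 to Pck2 had a median of 19.99 in control and 28.8 in DC371739 samples, a difference in mean log2 ratio of 1.14 (exact permutation p = 0.0466, adjusted p = 0.1). Pck1 to Pklr, the liver pyruvate kinase, had medians of 0.614 and 1.09 (log2 difference 1.11, exact permutation p = 0.0501, adjusted p = 0.1). Over the shallower libraries the differences were 1.60 and 1.49 (exact permutation p = 0.026, adjusted p = 0.039 for each). The ratio calls over the shallower libraries, here and below, were not tried with a further library left out. In both ratios controls 1 and 5 were lowest, at 5.93 and 4.22 for Pck1 to Pck2 and 0.175 and 0.191 for Pck1 to Pklr. The deep control 6 had the highest Pck1 to Pklr ratio among controls, at 1.681, and the next control was at 0.7415. Fbp1 to Pfkl, the liver phosphofructokinase, had medians of 40.5 and 36.4 (log2 difference -0.05, exact permutation p = 0.741). Got1 to Got2, the cytosolic over the mitochondrial aspartate aminotransferase, had medians of 0.228 and 0.227 (log2 difference -0.02, exact permutation p = 0.804). Gpt to Gpt2, the mitochondrial alanine aminotransferase, had medians of 5.31 and 7.15 (log2 difference 0.26, exact permutation p = 0.124). For the shallower libraries the last was 0.41 (exact permutation p = 0.013, adjusted p = 0.039), with 4 of 6 DC371739 samples above all 5 controls.

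**Figure D4:**
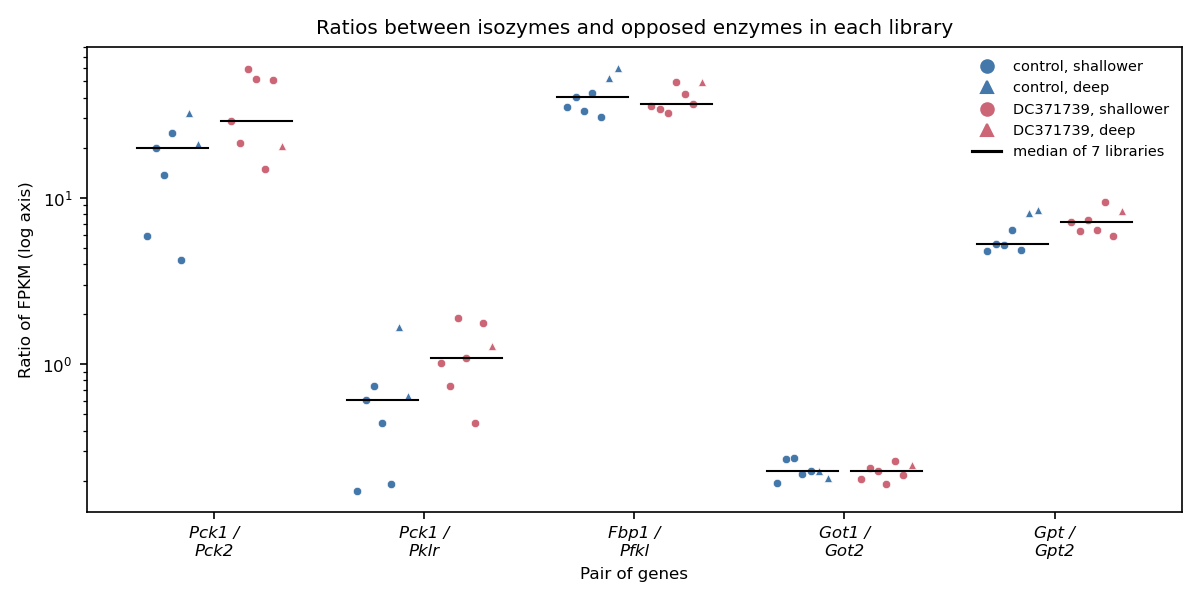
Ratio of FPKM for 5 pairs of genes in each library on a log axis, control in blue and DC371739 in red, triangles for the deep libraries, with a bar at the median of 7. The Pck1 to Pck2 ratio has a median of 19.99 in control and 28.8 in DC371739 samples, with controls 1 and 5 lowest at 5.93 and 4.22.

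The other genes of the pathway were taken from 5 lists, and the shares of all genes called, given above, apply to their counts. Listed genes that matched no symbol in the authors' table were not tested. Of 17 listed symbols of other enzymes shared by gluconeogenesis 9 were tested. Gapdh, Eno1, Tpi1, Mdh2 and Ldha were among those that were not. None of the 9 passed over all 14 libraries (0 at an unadjusted p under 0.05, 0 with DESeq2 and 2 with limma-voom). Their median log2 fold change was 0.03. Pcx, pyruvate carboxylase, which makes the oxaloacetate that Pck1 uses, was at 488 ± 44.0 and 562 ± 77.8 CPM (log2 fold change 0.20, adjusted p = 0.250). Slc2a2, the glucose transporter GLUT2, was at 0.19 (0.341) and Ldhb, a lactate dehydrogenase subunit, at -0.15 (0.534). Slc2a2 (0.33, adjusted p = 0.0222) and Pcx (0.24, 0.0467) rose over the shallower libraries, and no gene passed with the class term.

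Of 7 opposed glycolytic enzymes and regulators none passed over all 14 libraries (1 at an unadjusted p under 0.05, 1 with DESeq2, 1 with limma-voom, each time Pfkfb3), with a median of -0.05. Pfkfb3, which makes the activator of phosphofructokinase, was at 9.19 ± 4.0 and 21.3 ± 8.44 CPM (1.20, SE 0.31, adjusted p = 0.0512), and passed with upper-quartile or library-size scaling. Pklr was at 0.33 (adjusted p = 0.359). In the class term fit Pfkfb3 rose (1.37, adjusted p = 0.0218) and Mlxipl fell (-0.33, 0.0238). In the shallower libraries Pfkfb3 rose (1.65, adjusted p = 0.00955) and Mlxipl fell (-0.41, 0.00627). Mlxipl, the carbohydrate response factor ChREBP, was named after its values were seen.

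Of 11 genes of glycerol, lactate and pyruvate entry none passed (3 at an unadjusted p under 0.05, 0 with DESeq2, 3 with limma-voom; median 0.01). Gpd1 and Gpd2, the cytosolic and mitochondrial glycerol 3-phosphate dehydrogenases, were both at 0.37 (adjusted p = 0.133 and 0.201). Slc25a11, the mitochondrial oxoglutarate carrier, was at -0.22 (0.135). Gpd2 rose in the class term fit (0.49, adjusted p = 0.0126) and in the shallower libraries (0.64, 0.000429), where Gpd1 (0.41, 0.0222) and the monocarboxylate transporter Slc16a7 (0.36, 0.0111, named after its value was seen) rose too.

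Of 26 genes of amino acid catabolism none passed (3 at an unadjusted p under 0.05, 0 with DESeq2, 3 with limma-voom; median -0.02). Prodh, proline dehydrogenase, was at -0.27 (adjusted p = 0.110), Gldc of the glycine cleavage system at 0.51 (0.224) and Tdo2, tryptophan dioxygenase, at -0.22 (0.241). In both the class term fit and the shallower libraries the same 2 genes fell, Prodh (-0.29, adjusted p = 0.0446 over the shallower ones) and Gpt2 (-0.39, 0.0228), the latter named after its values were seen.

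Of 24 genes of hormone and transcriptional control none passed (8 at an unadjusted p under 0.05, 4 with DESeq2, 7 with limma-voom; median 0.02). Ppara, the fatty acid sensor, was at 0.75 (SE 0.22, adjusted p = 0.0734), Hnf4a, a hepatocyte factor that binds Pck1 and G6pc, at 0.48 (SE 0.14, 0.0795) and Cebpa, another such factor, at -0.65 (SE 0.20, 0.0839). With the class term 3 rose (Ppara, Hnf4a and Irs2) and 1 fell (Crtc2). Over the shallower libraries 5 of 24 rose and 2 fell. Those that rose were Ppara (1.06, adjusted p = 0.00402), Hnf4a (0.52, 0.00504), Irs2 (1.31, 0.00779), Irs1 (0.61, 0.0367) and Foxo1 (0.52, 0.0499). Those that fell were Cebpa (-0.86, 0.0093) and Crtc2 (-0.36, 0.00915). Irs2, Irs1, Foxo1 and Crtc2 were named after their values were seen. The list held 29 genes, of which Insr, Nr3c1, Cebpb, Nr4a2 and Tsc22d3 matched no symbol and were not tested.

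Markers of zones and of other cells were set beside these results. In bulk liver RNA, fewer cells of a type and less RNA per cell cannot be told apart. None of 9 hepatocyte, 9 periportal or 6 pericentral markers tested passed over all 14 libraries. At an unadjusted p under 0.05 these numbers were 0, 1 and 1, DESeq2 gave 0, 1 and 0, and limma-voom 1, 2 and 0. The periportal marker with an unadjusted p under 0.05 in edgeR was Ctsh (log2 fold change 0.66, adjusted p = 0.1). The pericentral one was Lgr5 (-0.95, adjusted p = 0.232). The summed periportal level was 4913 to 6594 CPM in control and 5359 to 6947 CPM in DC371739 samples, and the pericentral one 11430 to 16270 and 11140 to 16240 CPM. Most of each sum was a single gene, Pigr (control mean 3749 CPM) and Cyp2e1 (12020 CPM), so the sums say little about the other markers. Of the periportal markers 5 also stand in the list of amino acid catabolism. Of 11 macrophage markers 3 rose over all 14 libraries (Mpeg1, Laptm5 and Ctss; 7 at an unadjusted p under 0.05, 5 with DESeq2, 6 with limma-voom). The others did not pass and lay on either side of 0. Csf1r was at 0.62, Adgre1 at 0.56, Clec4f at 0.35, Marco at 0.33 and Vsig4 at 0.01. Cd163 was at -0.55, C1qa at -0.26 and C1qb at -0.07. The list summed to 620 to 911 CPM in control and 688 to 1075 CPM in DC371739 samples. Of 8 stellate markers none passed (3 at an unadjusted p under 0.05, 1 with DESeq2, 3 with limma-voom), and they summed to 219 to 314 and 276 to 453 CPM. Endothelial markers (8 tested) summed to 166 to 250 and 202 to 280 CPM, lymphocyte markers (5 tested) to 4.46 to 8.30 and 5.75 to 12.8 CPM, neutrophil markers (3 tested) to 5.84 to 9.93 and 8.74 to 14.9 CPM, and cholangiocyte markers (5 tested) to 17.6 to 27.0 and 19.6 to 40.0 CPM. None of these passed over all 14 libraries with edgeR. At an unadjusted p under 0.05 there were 3 endothelial, 2 lymphocyte, 1 neutrophil and 0 cholangiocyte markers, with DESeq2 2, 1, 1 and 0 and with limma-voom 3, 1, 1 and 0. The erythroid and adipocyte lists each had 1 tested marker, which did not pass (0 at an unadjusted p under 0.05 and 0 with either other tool), and no kidney tubule marker matched a symbol. No marker of the lists that matched a symbol was at 0 in any library. Of all tested genes, 1.85% passed over all 14 libraries, 12.3% in the class term fit and 21.5% in the 11 shallower ones. In the class term fit 5.62% were called higher, and in the 11 shallower libraries 11%. Whether the listed markers rose more often than other genes was not tested. In the fits in which members rose, more of these markers rose too, as did more genes in general, and none of the markers fell. Over the shallower libraries, where Pck1, G6pc, Slc37a4 and Ppargc1a rose, these were 5 macrophage markers (Adgre1, Csf1r, Mpeg1, Laptm5 and Ctss), 3 endothelial ones (Pecam1, Cdh5 and Eng), and Prf1 (lymphocyte), Csf3r (neutrophil), Reln (stellate) and Apob (hepatocyte). There the macrophage list summed to 620 to 911 CPM in control and 688 to 1070 CPM in DC371739 samples. In the class term fit, where Slc37a4 rose, they were 6 macrophage markers (those 5 and Clec4f), Pecam1, Cdh5, Prf1 and Csf3r. The part of these cells in the Pck1, G6pc, Slc37a4 and Ppargc1a values was not tested.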

How the data were processed

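Liver RNA of 14 samples was sequenced. Of library kits, TruSeq and NEBNext are each named in the protocol of every sample. The tools named in the submitters' processing notes are featureCounts 2.0.0, HISAT2 2.2.1 and edgeR. For their order and settings, the genome build and the strandedness, no source used here gives a statement. The authors deposited raw counts per gene and a table that holds FPKM beside the authors' own test columns (log2 fold change, p-value, adjusted p-value, mean log2 CPM). Counts were tested with edgeR 4.0.16 (R 4.3.3; robust quasi-likelihood fit, TMM, minimum count of 10, Benjamini-Hochberg over 12166 genes), with treatment alone, with a library class term, over 11 libraries, and with an interaction. CPM uses the TMM-scaled totals, and log2 CPM a prior count of 2. The test was tried on simulated counts.

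Alternatives were other scalings and filters, DESeq2 1.42.0, limma 3.58.1, a replicate block and each library left out. The members, lists, tests and named genes (the members, and the 3 of smallest p per list, beside those said to be named later) were chosen with earlier results of these data known. No 2 libraries of a group agreed within sampling noise (in 42 pairs, chi-square over its degrees of freedom was at least 11.2). Of the 10 symbols, 9 match the RefSeq table of BCM_Maur_2.0. No sequence is printed. One item of the pathway lists, and the results that need it, are not reported here.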

Additional observations from a re-analysis of the deposited data

How the results depend on the processing

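No library's value of a member or ratio stood apart from its group by a gap test in 30 groups of 7. That test looks at 1 extreme value at a time and can miss 2 libraries that are extreme together. Such are Pck1 in controls 1 and 5 (56.8 and 48.9 FPKM) and Ppargc1a in controls 6 and 7 (2.87 and 2.04 FPKM). Nor did it flag the Pck1 to Pklr ratio of control 6 (1.681, with the next control at 0.7415). Depth limits Ppargc1a (34 to 277 counts) most. No member was called under RLE, upper-quartile or library-size scaling, another filter, limma on FPKM or the replicate block. DESeq2 called 2 members, limma-voom with sample quality weights 5, the library class term 1 and the fit without the 3 deepest libraries 4. Leaving out single libraries gave 0 to 1. Named list genes also passed under some of these alternatives, among them Pfkfb3, Ppara, Hnf4a and Cebpa with DESeq2. The cause of these differences was not tested.

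Over all genes 225 were called. DESeq2 called 842, limma-voom 2885, the class term 1499, the fit without the 3 deepest libraries 2635 and the replicate block 8. Leaving out single libraries gave 25 to 1069. The deviations of same-numbered libraries from their group means had an r between -0.131 (replicate 6) and 0.121 (replicate 3), apart from replicate 7 (0.548). Both libraries of replicate 7 are deep. A correlation over all genes cannot tell whether the numbers pair the samples. The block changed no member's call.

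Among the members and ratios, the values that passed under an alternative were as follows. With DESeq2 they were G6pc 0.88 and Slc37a4 0.46. With limma-voom they were Pck1 1.87, G6pc 1.44, Slc37a4 0.59, Ppargc1a 0.98 and Tat 0.67. With the class term it was Slc37a4 0.45. Without the 3 deepest libraries they were Pck1 1.63, G6pc 1.20, Slc37a4 0.54, Ppargc1a 1.21, and the log2 ratios of Pck1 to Pck2 (1.60), Pck1 to Pklr (1.49) and Gpt to Gpt2 (0.41). Leaving out 1 library, Slc37a4 ranged from 0.38 to 0.51, Pck1 to Pck2 from 0.85 to 1.34 and Pck1 to Pklr from 0.86 to 1.40. Without control replicate 6 the last 2 passed (exact permutation test, adjusted p = 0.049 and 0.0315). Over the shallower libraries, leaving out 1 more (chosen after seeing the data), Pck1 ranged from 1.38 to 1.96, G6pc from 0.99 to 1.58 and Ppargc1a from 1.01 to 1.36. With the class term Slc37a4 ranged from 0.36 to 0.53.

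Signs turned for values near 0. Fbp1 was 0.0071 with upper-quartile scaling, 0.018 with library size alone, 0.060 with limma-voom and 0.034 without the 3 deepest libraries, and -0.069 to 0.021 leaving out 1 library. Sds was 0.0049, 0.0097, 0.014 and 0.0005 with upper-quartile scaling, library size alone, limma-voom and the replicate block, and -0.16 to 0.076 leaving out 1 library. Gpt was -0.015 with the class term and -0.0044 to 0.10 leaving out 1 library. Got1 was -0.020 to 0.042. The log2 ratio of Fbp1 to Pfkl was 0.072 without the 3 deepest libraries and -0.13 to 0.039 leaving out 1 library, and that of Got1 to Got2 -0.062 to 0.020. All other directions of the members, the ratios and the list genes named for their smallest p held in the alternatives run.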
